A study of Mus musculus with 21 samples.

Results

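Id2 and Id3 are the genes described here, 2 of the 17516 gene symbols in each count table, chosen by name and followed through all 21 libraries of the study. Both encode Id proteins, helix-loop-helix proteins that lack the basic region with which related factors touch DNA. Id proteins pair with the E proteins (the products of Tcf3, Tcf4 and Tcf12) and keep them from binding DNA, so their level sets how much E protein is free to act on its targets. In CD8 T cells Id2 is known for its part in effector cells, and Id3 is known as a gene of naive cells and of the precursors of long-lived memory cells.

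Single-cell RNA sequencing was done on mouse OT1 CD8 T cells, which carry a transgenic T cell receptor for an ovalbumin peptide. One library held naive cells at day 0 with no bead and no cytokine. The other 20 libraries held cells activated with beads coated with antibodies to CD3 and CD28. Of these, 2 had no added cytokine (days 3 and 5) and 18 received IL-2, IL-15 or the mutant IL-2 called IL-2v, each at 5 or 50 IU/mL and each sampled on days 3, 5 and 10. Every condition was 1 library, so no difference below has a replicate check and none was tested. In 6 libraries the treatment label names another interleukin (interleukin-3 for IL-2 at 50 IU/mL and interleukin-16 for IL-15 at 50 IU/mL) where the title names IL-2 or IL-15, and the titles were followed. All groups share the OT1 receptor, and all but the naive cells share the bead activation.

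A level is given as the unique molecular identifiers (UMIs) of the gene summed over cells and scaled to a library total of 1000000 (CPM), with its exact Poisson 95% interval. These intervals cover counting error alone. They treat UMIs as independent and leave out the spread between cells and between cultures. A share of cells is given after each cell was thinned at random to 2000 UMIs. A gene was called higher or lower in a comparison when all pairs of libraries differed in 1 direction and the median difference of log2(CPM + 1) was at least 1, which is a fold of 2. Differences on this scale understate the fold of a gene with a low level. The lists of partner and target genes were chosen with earlier results of these data known. Their counts and medians beside those of all genes are therefore descriptions.

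The libraries held 3250 to 7105 cells and 10589950 to 32648496 UMIs, with a median of 3016 to 5065 UMIs per cell. Cd3d, a subunit of the T cell receptor complex, was detected in 93.0% to 99.5% of cells and Cd8b1, a chain of the CD8 coreceptor, in 54.5% to 92.0%. Cells with a UMI of Mki67 or Top2a, which mark dividing cells, made up between 3.01% of the naive library and 86.9% of the library with IL-2v at 50 IU/mL on day 3. Markers of B, myeloid, erythroid, natural killer, innate lymphoid and NKT cells were pooled. The share of cells with any 2 or more of them, or with Cd4 and no Cd8 chain, lay between 0.862% and 9.32%. It was highest in the day 10 libraries that were also highest in Id2. These were IL-2 at 50 IU/mL (9.32%), IL-2v at 50 IU/mL (7.92%) and IL-2 at 5 IU/mL (6.99%). Cst3, listed as a myeloid marker, was in 20.7% to 41.3% of cells, most with IL-2 at 50 IU/mL on day 10. The other listed myeloid markers were each in 7.39% of cells or fewer. A cell with Cst3 and 1 further pooled marker is counted. How many cells in this share were of another lineage was not tested. Zbtb7b, listed as a CD4 T cell marker, did not enter this share. It was in up to 13.5% of cells, with IL-2 at 50 IU/mL on day 10. Id2 is also expressed by natural killer and innate lymphoid cells. All 5 markers of those cells were in the tables, and their summed level ranged from 0.944 CPM (IL-15 at 5 IU/mL, day 10) to 38.5 CPM (IL-2v at 50 IU/mL, day 10). Klrb1c was found in up to 13.0% of cells, in the latter library, whereas Ncr1, which defines natural killer cells, was in 0.0157% of cells or fewer in every library. Any 2 libraries shared at most 19 cell barcodes, and at most 0.340% of the smaller of them.

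Both genes are protein coding and neither shares exonic bases with another annotated gene (GRCm38, the mm10 build, GENCODE vM21). Id2 lies on the minus strand at chr12:25093799-25097140 (ENSMUSG00000020644.9), and Id3 on the plus strand at chr4:136143497-136145755 (ENSMUSG00000007872.3). Their coding lengths are 405 and 360 bases, in reference transcripts of 1270 and 1278 bases. The longest run of bases that the transcripts share is 19. The coding stretch in which the 2 genes are most alike is shown to mark how far their mRNAs differ there. Whether the counted reads cover this stretch was not examined. It spans 153 bases, codons 30 to 80 of Id2 and codons 35 to 85 of Id3, of which 105 bases (68.6%) are identical. Capitals mark the identical bases, and the sequences are read 5′ to 3′ on the coding strand.
Id2: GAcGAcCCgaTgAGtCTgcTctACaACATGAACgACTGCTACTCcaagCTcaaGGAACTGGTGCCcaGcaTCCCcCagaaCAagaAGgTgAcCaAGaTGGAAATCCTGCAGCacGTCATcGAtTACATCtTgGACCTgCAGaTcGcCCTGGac
Id3: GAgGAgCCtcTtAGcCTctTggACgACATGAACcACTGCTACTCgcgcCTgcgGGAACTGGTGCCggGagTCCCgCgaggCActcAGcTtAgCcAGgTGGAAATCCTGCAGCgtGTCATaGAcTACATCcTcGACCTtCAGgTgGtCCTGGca

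At the top of the Id2 range Id3 was at its lowest, but elsewhere the order of the 21 libraries by one gene was not the reverse of that by the other. Id2 was highest where IL-2 or IL-2v had been present for 10 days at 50 IU/mL, and Id3 was lowest in those same libraries. Id3 was highest on day 5 without cytokine, a library that was 12th for Id2, and the library lowest in Id2, day 3 without cytokine, was 6th for Id3. Id2 levels spanned 15.7-fold, from 74.8 to 1177 CPM with a median of 139 CPM. Id3 levels spanned 322-fold, from 0.696 to 224 CPM with a median of 40.0 CPM. Id2 UMIs outnumbered Id3 UMIs in 19 of 21 libraries, and summed over all libraries there were 144779 Id2 and 27472 Id3 UMIs. The correlation of the 2 log levels over the 21 libraries was -0.72, given as a description because libraries share their cell source and scaling.

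In the naive library Id2 stood at 80.5 CPM (76.4 to 84.7, 1486 UMIs) and Id3 at 122 CPM (117 to 127, 2254 UMIs). On day 3 without cytokine the levels were 74.8 CPM (71.3 to 78.5) for Id2 and 74.7 CPM (71.2 to 78.4) for Id3. On day 5 without cytokine they were 138 CPM (134 to 143) for Id2 and 224 CPM (219 to 230) for Id3. Id3 was thus the more abundant of the pair in the naive library and on day 5 without cytokine, and the 2 levels overlapped on day 3 without cytokine.

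In the 5 IU/mL IL-2 libraries, Id2 was at 84.2 CPM on day 3, 202 CPM on day 5 and 816 CPM on day 10. Id3 in the same libraries was at 42.5, 122 and 40.2 CPM. At 50 IU/mL IL-2, Id2 was at 99.2, 210.2 and 1177 CPM, the last being the highest Id2 level of the study. There Id3 was at 35.1 CPM on day 3, 15.0 CPM on day 5 and 1.61 CPM (1.17 to 2.17, from 44 UMIs) on day 10. Id2 thus stood above Id3 in all 6 IL-2 libraries, and the gap was widest on day 10.

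In the libraries of 5 IU/mL IL-2v, Id2 was at 106 CPM on day 3, 185 CPM on day 5 and 299 CPM on day 10, and Id3 at 41.9, 25.7 and 15.5 CPM. At 50 IU/mL IL-2v, Id2 was at 151, 429 and 831 CPM. Id3 was at 21.7 and 8.32 CPM on days 3 and 5 and at 0.696 CPM (0.419 to 1.09, from 19 UMIs) on day 10, its lowest level of the study. In both IL-2v series each later day had a higher Id2 and a lower Id3 level than the day before.

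In the IL-15 libraries of 5 IU/mL, Id2 was at 77.6 CPM on day 3, 135 CPM on day 5 and 129 CPM on day 10, and Id3 at 49.2, 123 and 103 CPM. At 50 IU/mL, Id2 was at 90.0, 139 and 235 CPM and Id3 at 39.6, 33.4 and 40.0 CPM. The 5 IU/mL IL-15 library of day 10 was the cytokine library of that day nearest to the naive one, with Id2 1.60-fold above and Id3 at 0.842 of the naive level, and neither interval overlapped its naive counterpart.

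**Figure D1:**
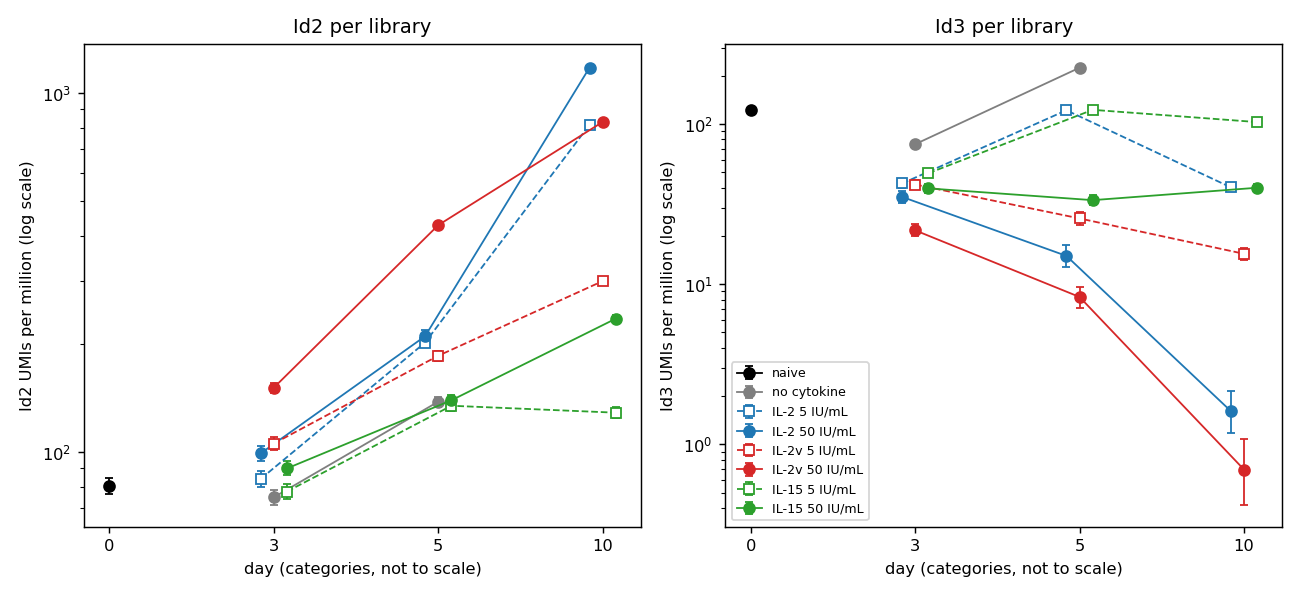
Level of Id2 (left) and Id3 (right) in CPM on a log axis against day (categories) for each library. Each point is 1 library, bars are exact Poisson 95% intervals, filled circles are 50 IU/mL, naive or no cytokine, and open squares with dashed lines are 5 IU/mL. The IL-2 library of 50 IU/mL on day 10 has Id2 at 1177 CPM and Id3 at 1.61 CPM, and the 5 IU/mL IL-15 library of that day has them at 129 and 103 CPM.

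Many neighbours in the order of levels were not separated by their counting intervals, 10 of 20 neighbouring pairs for each gene. For Id2 the order began with IL-2 (50 IU/mL) on day 10, followed by IL-2v (50 IU/mL) and IL-2 (5 IU/mL) of the same day, which overlapped. It ended with IL-15 (50 IU/mL), IL-2 (5 IU/mL), naive, IL-15 (5 IU/mL) and no cytokine, all but the naive cells on day 3, where each overlapped the next. For Id3 the order began with no cytokine on day 5. The library with IL-15 at 5 IU/mL on day 5, the naive library and that with IL-2 at 5 IU/mL on day 5 followed and each overlapped the next. Between 33.4 and 42.5 CPM of Id3 lay 7 libraries, each overlapping its neighbour.

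The Id2 to Id3 ratio of UMIs ranged from 0.616 (0.590 to 0.642) on day 5 without cytokine to 1194 (764 to 1983) on day 10 with IL-2v at 50 IU/mL, with a median of 2.83. It compares molecules counted, with no correction for how well each mRNA is captured. The naive library had a ratio of 0.659 and overlapped the lowest library. On day 3 without cytokine the interval of the ratio (0.935 to 1.07) included 1. Cytokine libraries of day 3 ran from 1.58 with IL-15 at 5 IU/mL to 6.97 with IL-2v at 50 IU/mL.

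On day 5 the ratio was 1.10 with IL-15 at 5 IU/mL, 1.66 with IL-2 at 5 IU/mL, 4.17 with IL-15 at 50 IU/mL, 7.21 with IL-2v at 5 IU/mL, 14.0 with IL-2 at 50 IU/mL and 51.5 with IL-2v at 50 IU/mL. On day 10 the ratio was 1.25 with IL-15 at 5 IU/mL, 5.89 with IL-15 at 50 IU/mL, 19.4 with IL-2v at 5 IU/mL, 20.3 with IL-2 at 5 IU/mL and 730 with IL-2 at 50 IU/mL. The IL-2 and IL-2v libraries of 5 IU/mL on day 10 overlapped in ratio although their Id2 levels were 816 and 299 CPM and their Id3 levels 40.2 and 15.5 CPM. IL-2v at 5 IU/mL had a ratio above that of IL-2 or IL-15 at the same dose on days 3 and 5. On day 5 it was also above that of IL-15 at 50 IU/mL, with 1.33-fold more Id2 and 0.769 of the Id3.

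**Figure D2:**
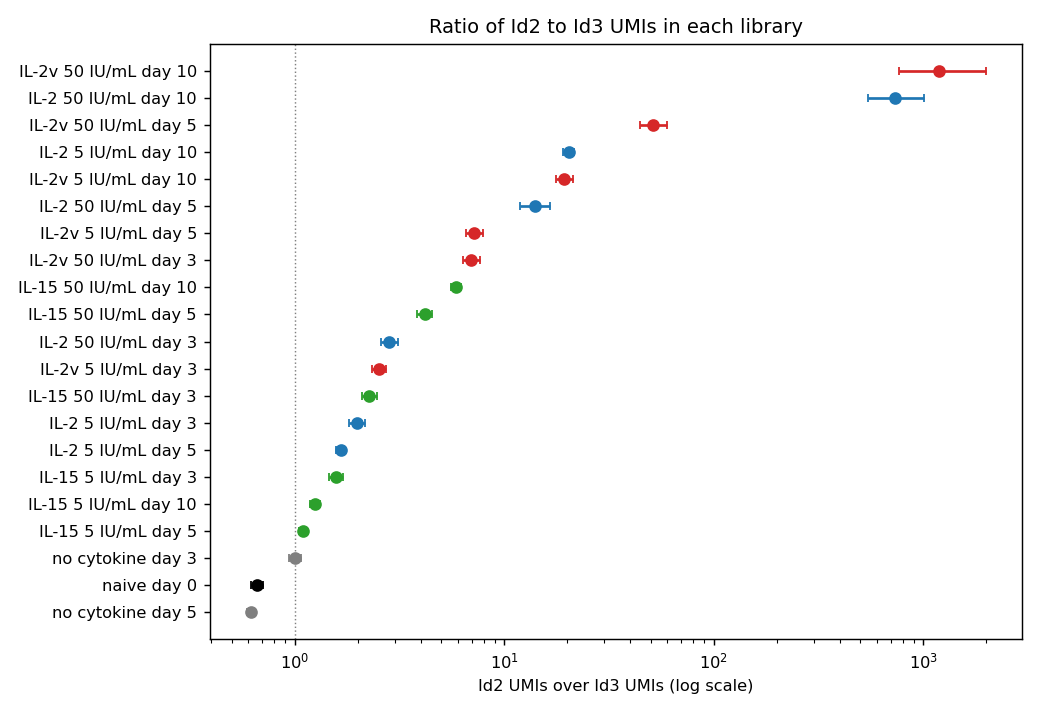
Ratio of Id2 to Id3 UMIs on a log axis for the 21 libraries, ordered by the ratio. Points are libraries, bars are 95% intervals and the dotted line marks equal counts. The naive and day 5 no cytokine libraries lie left of the line, and the IL-2 and IL-2v libraries of 50 IU/mL on day 10 lie farthest right, at 730 and 1194.

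On day 3 after bead activation without cytokine, Id2 was near the level of the whole naive library and Id3 was below it. Id2 differed by -0.10 on the log2 scale between day 3 without cytokine and the naive cells, with overlapping intervals, and Id3 by -0.70, a level 1.63-fold lower. Without cells with a natural killer or innate lymphoid marker the Id2 difference was 0.10. The naive level rests in part on a minority, since the 11.9% of naive cells with a Ccl5 UMI held 42.5% of the Id2 UMIs. The other naive cells had 52.9 CPM of Id2. The day 3 library, at 74.8 CPM, was not split by Ccl5, so these 2 levels are not a like comparison. Neither gene passed the fold of 2, in a comparison in which 19.4% of the genes tested did. Gzmb, the granzyme B gene of cytotoxic granules, was higher by 6.42 and Irf4, a factor induced by T cell receptor signals, by 4.29. Of 7 effector partners of the Id genes that were tested, 6 were called higher and 1, Prf1, was called lower (median 1.35, against -0.11 over all genes). Of 11 naive and memory partners, 4 were called lower, Il7r, Klf2, Eomes and Lef1, and none higher (median -0.67). Of 6 tested genes of the EGR and SMAD pathways, which act upstream of Id gene transcription, 3 were called lower: Egr1 by -2.45, Smad4 by -1.47 and Smad7 by -1.30.

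From day 3 to day 5 without cytokine both genes stood higher, Id3 more than Id2. Id3 was 3.00-fold higher (log2 difference 1.57) and was called, the 56th highest difference of 5785 genes, where 13.1% of genes were called. Id2 was 1.85-fold higher (0.88) and did not pass the fold of 2. Id3 was called in the same direction as Il7r, the IL-7 receptor chain of naive and memory cells (2.34), the only 1 of 10 naive and memory partners called. Gzmb (-3.74), Prdm1, a repressor of memory genes (-2.26), and Irf4 (-1.62) were called lower among 6 effector partners. Cycling cells made up 60.0% of the library on day 3 and 13.8% on day 5. In cells with neither Mki67 nor Top2a the differences were 0.87 for Id2 and 1.51 for Id3.

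Every cytokine at every dose came with less Id3 than the no cytokine library of the same day, in 12 of 12 pairs. The 6 comparisons share the 2 no cytokine libraries and are given side by side only. For 5 IU/mL IL-2 the Id3 difference was -0.80 on day 3 and -0.88 on day 5, not called, the 6th lowest of 5460 genes, with 0.495% of genes called. For 5 IU/mL IL-15 it was -0.59 and -0.87, not called, the 12th lowest of 5455, with 0.147% of genes called. For 50 IU/mL IL-15 it was -0.90 and -2.71, called, the 3rd lowest of 5696, with 2.35% called. These 3 conditions had the smaller median Id3 differences, and the call for 50 IU/mL IL-15 rests on day 5, when Id3 was 6.71-fold lower.

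The 5 IU/mL IL-2v difference of Id3 from no cytokine was -0.82 on day 3 and -3.08 on day 5 (8.73-fold lower), called and the 2nd lowest of 5778 genes, with 5.04% called. Day 3 alone would not have been called. At 50 IU/mL IL-2 it was -1.07 and -3.82 (14.9-fold lower on day 5), called and the 14th lowest of 6009, with 13% called. At 50 IU/mL IL-2v it was -1.74 and -4.60 (3.45-fold and 27.0-fold lower), called and the 4th lowest of 6227, with 16.2% called. Id3 in each of the 6 conditions stood farther below no cytokine on day 5 than on day 3. The no cytokine level itself was 74.7 CPM on day 3 and 224 CPM on day 5. At 5 IU/mL, Id3 was also higher on day 5 with IL-2 (42.5 and 122 CPM) and with IL-15 (49.2 and 123 CPM).

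Id2 moved less against no cytokine, and only IL-2v at 50 IU/mL gave a call. There it was 2.02-fold higher on day 3 (151 against 74.8 CPM) and 3.10-fold higher on day 5 (429 against 138 CPM), a median of 1.32. The differences on days 3 and 5 were 0.17 and 0.54 with IL-2 at 5 IU/mL, 0.40 and 0.60 with IL-2 at 50 IU/mL, and 0.49 and 0.42 with IL-2v at 5 IU/mL. With IL-15 they were 0.26 and 0.01 at 50 IU/mL and 0.05 and -0.04 at 5 IU/mL, and the intervals overlapped those of no cytokine on both days at 5 IU/mL and on day 5 at 50 IU/mL. Cycling cells were more frequent with IL-2v at 50 IU/mL than without cytokine (86.9% against 60.0% on day 3, 66.7% against 13.8% on day 5). Over cells lacking both cycling genes the median differences with IL-2v at 50 IU/mL were 1.30 for Id2 and -3.37 for Id3.

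Partner genes of the naive and memory list were called lower, beside Id3, in several of these comparisons. In that of 50 IU/mL IL-2v, 6 of 11 tested were called lower, among them Tcf7, the TCF1 gene of stem-like and memory cells (-2.27), Slamf6, a surface receptor of such cells (-2.32), and Klf2, a factor of quiescence and homing (-2.13). One, Eomes, a T-box factor of memory and effector cells, was called higher (1.70). The median of the 11 was -1.03, against 0.27 over all genes, of which 16.2% were called. In the effector list 4 of 7 were called higher (Gzmb 3.30, Prdm1 1.87, Irf4 1.69, Prf1 1.52; median 1.52). In that of 50 IU/mL IL-2, 4 of 11 naive and memory partners were called lower, 1 (Eomes) higher, and 3 of 5 effector partners higher, with 13% of all genes called. In that of 5 IU/mL IL-15 no member of either list was called, with 0.147% of all genes called.

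The 3 cytokines were compared at equal day and dose in 6 pairs of libraries. Between IL-2v and IL-2, Id2 had no single direction and Id3 was lower with IL-2v in all 6 pairs. On day 3 Id2 was higher with IL-2v, by 0.32 at 5 IU/mL and 0.60 at 50 IU/mL. On day 5 the differences were -0.12 and 1.02, and on day 10 they were -1.44 and -0.50. On day 10 Klrb1c was in 1.34% of IL-2v and 6.49% of IL-2 cells at 5 IU/mL, and in 13.0% and 8.71% at 50 IU/mL. In cells free of natural killer and innate lymphoid markers the day 10 Id2 differences were -1.397 and -0.535. The Id3 differences were -0.02, with overlapping intervals, and -0.67 on day 3, and -2.20 (4.73-fold lower) and -0.78 on day 5. On day 10 they were -1.32 and -0.62. The last is shrunk by the 1 added to each CPM, since the levels were 0.696 and 1.61 CPM, 2.32-fold lower with IL-2v. No added value below 1 was tried, so whether the lack of an Id3 call depends on it was not tested. Neither gene was called (medians 0.10 and -0.73), with 1.32% of genes called, and the ratio was higher with IL-2v in 5 of 6 pairs. The Id3 median was -1.05 without day 3 and -1.32 without the 50 IU/mL pairs, and Id3 was then called. The Id2 median was -0.31 without day 3.

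IL-15 stood with lower Id2 and higher Id3 than IL-2 in all 6 pairs. The Id2 differences were -0.12 (overlapping intervals) and -0.14 on day 3, -0.58 and -0.59 on day 5, and -2.65 (6.34-fold lower at 5 IU/mL) and -2.32 (5.00-fold lower at 50 IU/mL) on day 10. The Id3 difference was 0.17 on day 3 at 50 IU/mL, with overlapping intervals. It was smallest on day 5 at 5 IU/mL, 0.01 with overlapping intervals (123 against 122 CPM). It was largest on day 10 at 50 IU/mL, 3.97, a level 24.8-fold higher (40.0 against 1.61 CPM). With medians of -0.59 and 0.66, neither gene was called, and 2.19% of genes were. Without the day 3 pairs the medians were -1.45 for Id2 and 1.22 for Id3, and both were called. On day 10 the IL-2 libraries also held more cells with Klrb1c (6.49% and 8.71%) than the IL-15 libraries (0% and 0.947%). Without every cell with a UMI of any of the 5 natural killer and innate lymphoid markers, the day 10 Id2 differences were -2.58 at 5 IU/mL and -2.38 at 50 IU/mL, and those of Id3 were 1.25 and 3.87.

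Between IL-2v and IL-15 the Id3 difference was the lowest of all 5810 genes tested. Id3 was lower with IL-2v in 6 of 6 pairs, and was called with a median of -2.05, with 3.06% of genes called. The differences at 5 and 50 IU/mL were -0.23 and -0.84 on day 3, -2.21 and -1.89 on day 5, and -2.66 and -4.59 on day 10. On day 10 at 50 IU/mL it was 57.4-fold lower (0.696 against 40.0 CPM). Id2 was higher with IL-2v in 6 of 6 pairs, by 0.44 to 1.82, and its median of 0.98 missed the fold of 2 (215th highest). Without the day 3 pairs the Id2 median was 1.41 and it was called. On day 10 at 50 IU/mL Klrb1c was in 13.0% of the IL-2v cells and 0.947% of the IL-15 cells. In that pair, cells free of the 5 natural killer and innate lymphoid markers gave an Id2 difference of 1.84, against 1.82 in all cells. Tcf7 (-1.71), Klf2 (-1.49) and Slamf6 (-1.29) were called lower among 10 naive and memory partners, and Gzmb (2.05) and Prdm1 (1.15) higher among 6 effector partners. The list medians were -0.98 and 0.68, against 0.10 over all genes.

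**Figure D3:**
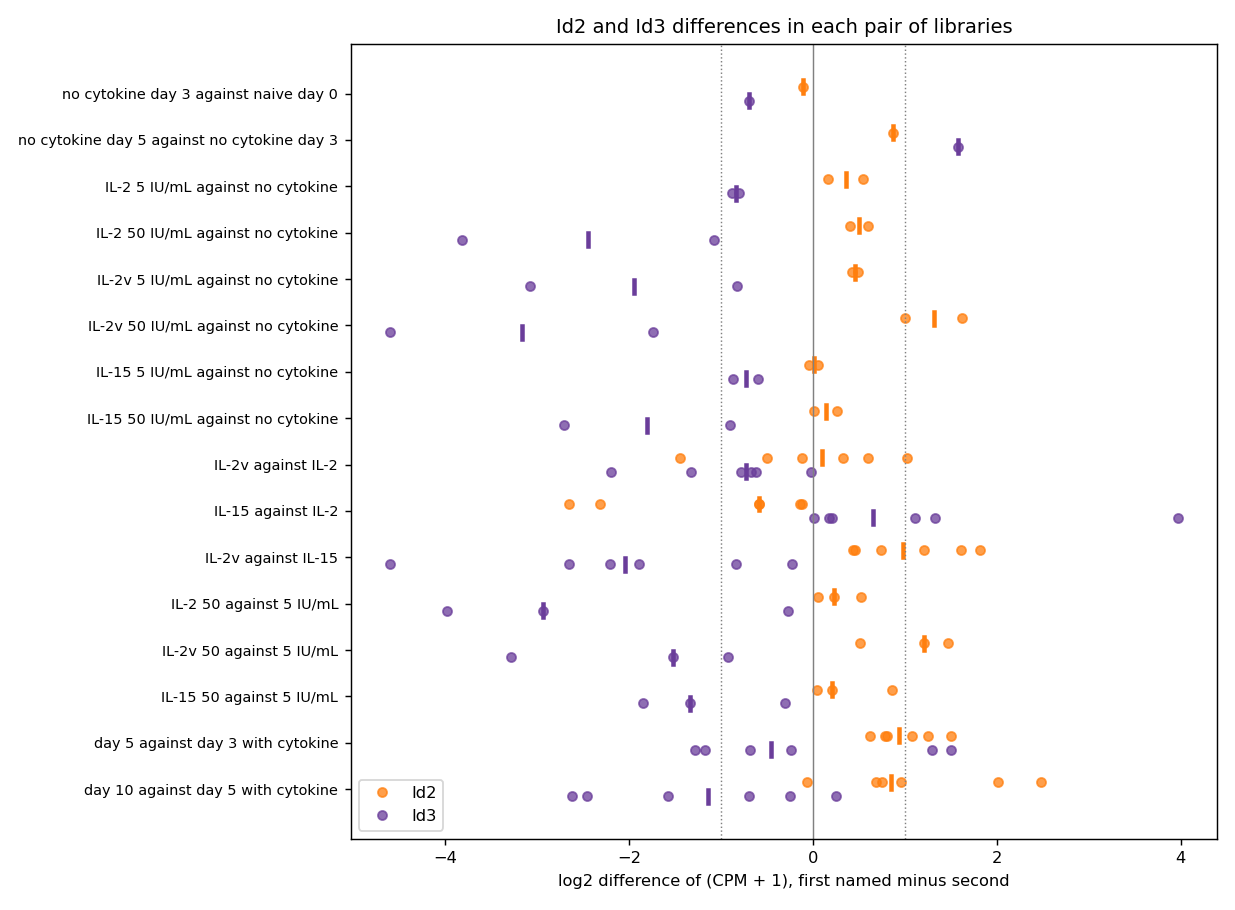
Difference of log2(CPM + 1) for Id2 (orange) and Id3 (purple) in each comparison, the first named condition minus the second. Points are pairs of libraries, thick ticks are medians over pairs, and dotted lines mark differences of -1 and 1. All Id3 points of the comparisons of a cytokine with no cytokine and of the dose comparisons lie below 0. The Id2 points of IL-2v against IL-2 lie on both sides of 0.

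The dose of each cytokine was compared within the day, in 3 pairs per cytokine. Id3 was lower at 50 than at 5 IU/mL in all 9 pairs and was called for each cytokine. For IL-2 the differences on days 3, 5 and 10 were -0.27, -2.94 (8.11-fold lower) and -3.98 (24.9-fold lower), the 2nd lowest median of 5879 genes, with 6.99% of genes called. For IL-2v they were -0.92, -1.52 and -3.28 (22.2-fold lower on day 10), the 12th lowest of 5913, with 3.01% called. That call was lost with a pseudocount of 10 (median -0.96). For IL-15 they were -0.31, -1.84 and -1.34, the 6th lowest of 5523, with 1.05% called. Without day 5 the IL-15 median was -0.82 and no longer called.

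Id2 was called higher at the higher dose for IL-2v alone, with differences of 0.51, 1.20 and 1.47 on days 3, 5 and 10 (median 1.20, the 105th highest). The median was 0.99 without day 5 and 0.86 without day 10, and neither would have been called. On day 10 Klrb1c was found in 13.0% of cells at 50 IU/mL IL-2v and in 1.34% at 5 IU/mL. With every cell that held a natural killer or innate lymphoid marker left out, the day 10 difference of Id2 was 1.48. For IL-2 the Id2 differences were 0.23, 0.06 (overlapping intervals) and 0.53, and for IL-15 they were 0.21, 0.05 (overlapping) and 0.87. Whether the dose difference of Id2 differs between cytokines was not tested. For IL-2 at the higher dose, 4 of 11 naive and memory partners were called lower, among them Tcf7 (-2.07), Klf2 (-2.02) and Slamf6 (-1.64), and 1, Myb (1.03), was called higher (median -0.89, against 0.03 over all genes, of which 6.99% were called). For IL-2v 4 of 11 were called lower and none higher (median -0.89, against 0.10 over all genes, of which 3.01% were called). For IL-15 2 were called lower and 1, Eomes, higher, a call that was lost with TMM scaling (median -0.24, against 0.02 over all genes, of which 1.05% were called).

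Over time, Id2 was higher on day 5 than on day 3 with every cytokine and dose, in 6 of 6 pairs. The differences ranged from 0.62 to 1.50 with a median of 0.94, the 65th highest of 5912 genes and just under the fold of 2, with 3.04% of genes called. Among cells without a cycling gene the median was 1.13 and Id2 was called. Cycling cells ranged from 55.7% to 86.9% in the cytokine libraries of day 3 and from 18.7% to 66.7% in those of day 5. The Id3 differences from day 3 to day 5 split by dose and cytokine. Id3 was higher on day 5 with IL-2 at 5 IU/mL (1.50) and IL-15 at 5 IU/mL (1.30) and lower in the other 4 pairs (median -0.46). Without cytokine the differences over the same days were 0.88 for Id2 and 1.57 for Id3. The Id2 rise was thus not particular to the cytokine libraries, nor was the Id3 rise at 5 IU/mL of IL-2 or IL-15.

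From day 5 to day 10 Id2 stood higher in 5 of 6 pairs. The differences were 2.48 with IL-2 at 50 IU/mL (5.60-fold), 2.01 with IL-2 at 5 IU/mL (4.04-fold), 0.95 with IL-2v at 50 IU/mL, 0.75 with IL-15 at 50 IU/mL and 0.69 with IL-2v at 5 IU/mL. With IL-15 at 5 IU/mL it was -0.06, with overlapping intervals. Id3 was lower in 5 of 6 pairs, 9.31-fold with IL-2 at 50 IU/mL and 11.9-fold with IL-2v at 50 IU/mL, and higher by 0.25 on the log2 scale with IL-15 at 50 IU/mL. Neither gene was called (medians 0.85 and -1.14, the latter with pairs in both directions), with 1.69% of genes called. The Id2 to Id3 ratio was higher on day 10 in 6 of 6 pairs, with a median log2 difference of 2.52. Without the IL-2 pairs that median was 0.96, under the fold of 2. Without the IL-15 pairs, both genes were called, Id2 with 1.48 and Id3 with -2.02. Cells with Klrb1c were more frequent on day 10 than on day 5 at 5 IU/mL IL-2 (6.49% against 0.191%), 50 IU/mL IL-2 (8.71% against 0.677%) and 50 IU/mL IL-2v (13.0% against 0.433%). In cells without any of the 5 natural killer and innate lymphoid markers, the Id2 differences of these 3 pairs were 1.94, 2.53 and 0.95.

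The library with the highest level of each gene also had the highest share of cells with it. After thinning to 2000 UMIs, 2857 to 6921 cells per library entered, and 57 to 393 shallower cells per library were left out. An Id2 UMI was found in 10.2% of naive cells and in 83.7% of cells with IL-2 at 50 IU/mL on day 10, the highest share. Before thinning these shares were 15.7% and 94.3%. An Id3 UMI was found in 31.6% of cells on day 5 without cytokine (46.5% before thinning) and in 0.0808% of cells with IL-2v at 50 IU/mL on day 10 (0.354% before thinning). The last value is 4 of 4948 cells. It is the lowest share of either gene, in the library with the lowest Id3 level, and gives no bound on free RNA in other libraries. No cell type that should lack Id2 or Id3 was set beside their lower shares, so the part of free RNA in them was not tested.

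The share of cells with Id2 stood at 72.7% with IL-2v at 50 IU/mL and 66.1% with IL-2 at 5 IU/mL on day 10, and at 47.8% with IL-2v at 50 IU/mL on day 5. For 5 IU/mL IL-15 it was 12.9% on day 3, 16.6% on day 5 and 17.1% on day 10. The share with Id3 was 17.0% in naive cells and 12.3% on day 3 without cytokine. On day 5 it was 19.4% with IL-15 at 5 IU/mL and 18.5% with IL-2 at 5 IU/mL, against 6.17% with IL-15 at 50 IU/mL and 2.91% with IL-2 at 50 IU/mL. The mean number of Id2 UMIs in a cell with any ranged from 1.14 (IL-15 at 5 IU/mL, day 3) to 2.80 (IL-2 at 50 IU/mL, day 10).

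Cells with both genes made up at most 4.08% of a library after thinning (day 5 without cytokine), and 12.0% of that library before thinning. In 19 of 21 libraries the share with both was below the product of the 2 single shares, and in 8 the interval of that quotient lay under 1. It lay over 1 in none after thinning. The lowest of these 8 quotients were 0.437 (0.292 to 0.627) with IL-15 at 50 IU/mL on day 5, 0.495 (0.314 to 0.743) with IL-2v at 5 IU/mL on day 5 and 0.595 (0.472 to 0.741) with IL-15 at 50 IU/mL on day 10. On day 5 without cytokine it was 0.756 (0.664 to 0.857). There 12.9% of cells with Id3 also had Id2, against 19.0% of cells without Id3. In the day 5 library of 5 IU/mL IL-2 these shares were 13.9% and 25.3%, and with IL-15 at 50 IU/mL on day 5 Id2 was in 8.41% of cells with Id3, again below the share in cells without Id3. In the naive library the quotient was 0.791 and on day 3 without cytokine it was 1.04. In the library of 50 IU/mL IL-2v on day 10 no thinned cell had both. Without thinning, 14 of 21 libraries were below the product, and the quotient with IL-2 at 50 IU/mL on day 3 lay over 1, at 1.21 (1.03 to 1.41), and with thinning to 1000 UMIs 19 were.

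**Figure D4:**
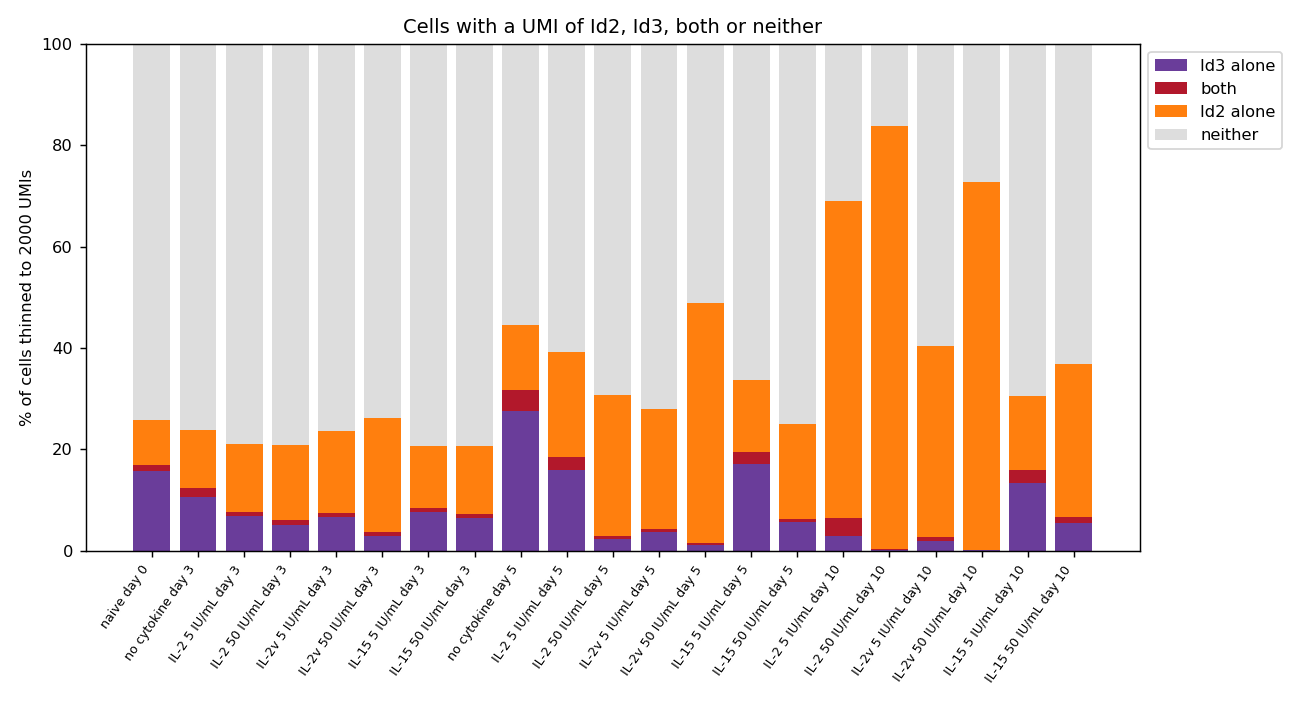
Percent of cells, each thinned to 2000 UMIs, with a UMI of Id3 alone (purple), of both genes (red), of Id2 alone (orange) or of neither (grey), stacked for each of the 21 libraries. The part with Id3 is largest on day 5 without cytokine (31.6%), the part with Id2 is largest with IL-2 at 50 IU/mL on day 10 (83.7%), and the part with both is 4.08% or less after thinning.

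Within libraries, cells were split by a UMI of Tcf7, and Id2 was lower in the Tcf7 positive cells of all 20 libraries with at least 100 cells in each class. The level in Tcf7 positive cells was 0.436 to 0.886 of that in negative cells (median 0.692), and the intervals did not overlap in 19. Id3 was higher in the Tcf7 positive cells of all 20 libraries, 1.06-fold to 2.36-fold (median 1.50), with no overlap in 13. On day 5 without cytokine Id2 was at 98.9 CPM in Tcf7 positive and 227 CPM in Tcf7 negative cells, and Id3 at 241 and 187 CPM. In the day 3 library of 5 IU/mL IL-2, Id3 was at 64.0 and 27.1 CPM. When all cells were thinned to 2000 UMIs before the split, Id2 was lower in 20 of 20 libraries (median 0.694) and Id3 higher in 18 of 20 (median 1.38). The library with IL-2 at 50 IU/mL on day 10 had too few Tcf7 positive cells for this split.

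A split by Gzmb gave the opposite directions. In 18 libraries with at least 100 cells in each class, Id2 was higher in Gzmb positive cells of all 18, 1.12-fold to 2.79-fold (median 1.54), with no overlap in 17. Id3 was lower in 15 and higher in 2 (median 0.626), with no overlap in 13 of the former and none of the latter. In the day 10 library of 50 IU/mL IL-2v the 119 Gzmb negative cells held 0 Id3 UMIs and gave no ratio. On day 5 without cytokine the 515 Gzmb positive cells had 321 CPM of Id2, against 115 CPM in the others, and 139 CPM of Id3, against 235 CPM. In the day 5 library of 5 IU/mL IL-2 these levels were 275 and 132 CPM for Id2 and 75.8 and 166 CPM for Id3. Cells of 1 library share that library, so these counts describe how often the direction recurred and are no test. The intervals assume a variance over mean of 1 for the UMIs of a gene. In thinned cells it was 1.14 to 2.68 for Id2 and 0.996 to 1.70 for Id3. The counts without overlap in these splits may therefore be too high.

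**Figure D5:**
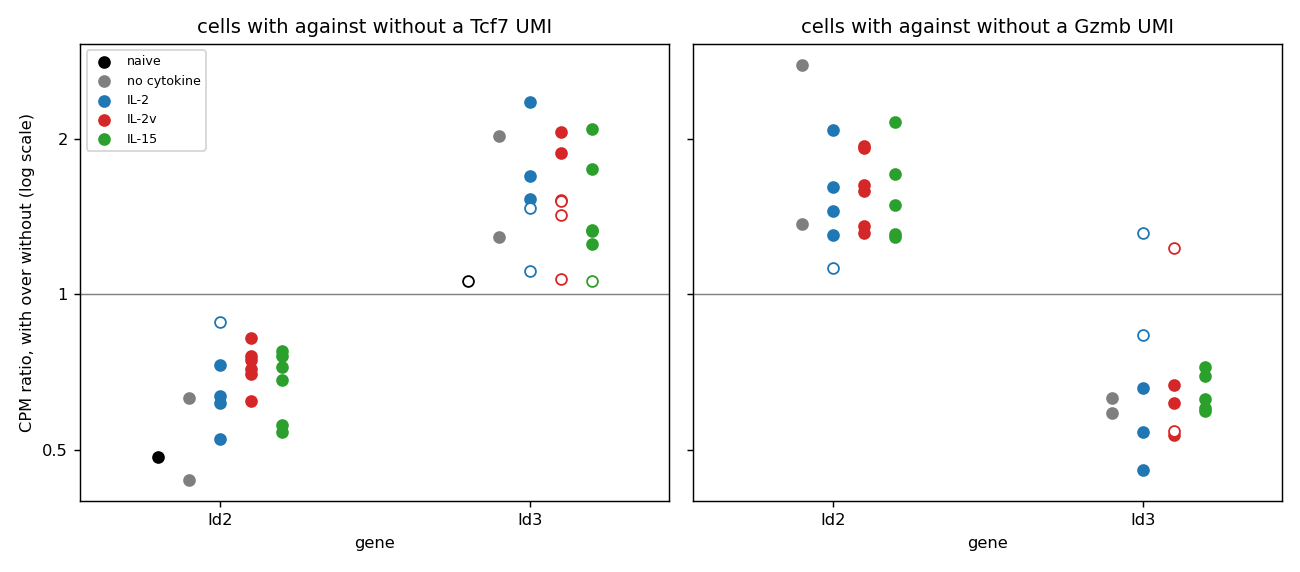
Ratio of the Id2 and Id3 level (log axis) in cells with a Tcf7 UMI over cells without (left) and with a Gzmb UMI over without (right). Each point is 1 library, coloured by condition, and open points are libraries whose 95% intervals overlap. All Id2 points lie below 1 for Tcf7 and above 1 for Gzmb, and all Id3 points lie above 1 for Tcf7.

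Id2 was spread unevenly over the naive cells. The variance of Id2 UMIs per thinned cell over its mean (Fano factor) was 2.68 in the naive library, the highest of all libraries, which ranged from 1.14. Cells with a UMI of Ccl5, a chemokine gene of memory and effector CD8 T cells, made up 11.9% of naive cells (569) and held 42.5% of the naive Id2 UMIs (632 of 1486). Their Id2 level was 274 CPM, against 52.9 CPM in the other naive cells, 5.18-fold higher, and 6.21-fold higher after thinning. Their Id3 level was 121 CPM, against 122 CPM, with overlapping intervals. Naive cells with a UMI of Mki67 or Top2a also had more Id2, 206 against 75.3 CPM (2.74-fold).

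Splits by cycling genes and by Il7r gave no single direction over libraries. Id2 was higher in cells with Mki67 or Top2a in 16 of 21 libraries, 11 of them without overlap, and lower in 5, 3 of them without overlap. These 3 were libraries of day 10. Id3 was higher in 10 and lower in 11, without overlap in 2 and 5. In 20 libraries split by Il7r, Id2 was lower in Il7r positive cells in 14 and higher in 6, without overlap in 7 and 1, and the counts for Id3 were 14 and 6, without overlap in 6 and 1.

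Genes of the other Id and E proteins spanned narrower ranges than Id2 and Id3, or were too low to follow. Id1, the third gene of the family in the tables, was rarely counted, at 0.0899 to 0.858 CPM and 168 UMIs in all libraries together. Among the E proteins, Tcf3, the E2A gene, ranged from 27.2 to 85.4 CPM and Tcf12, the HEB gene, from 38.3 to 113 CPM, and both were lowest with IL-2 at 50 IU/mL on day 10, where Id2 was highest. Tcf4, the E2-2 gene, ranged from 2.76 to 30.3 CPM and was highest in that same library. It was the only E protein gene called in any of the 16 comparisons, higher at 50 than at 5 IU/mL of IL-2 (median 1.31), where 6.99% of all genes were called. In the other comparisons 0.147% to 19.4% of all genes were called.

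Of 10 genes listed as E protein targets from textbook knowledge, 4 had a mean of at least 20 CPM over the libraries. Cdkn1a, the p21 cell cycle inhibitor, was called higher with IL-2 at 50 IU/mL (4.53) and IL-2v at 50 IU/mL (3.24) against no cytokine, where 13% and 16.2% of all genes were called. It was also called higher at the higher dose of IL-2 (2.93, with 6.99% of all genes called) and of IL-2v (3.73, with 3.01%), higher with IL-2v than with IL-15 (1.65, with 3.06%), and lower with IL-15 than with IL-2 (-3.92, with 2.19%). It was the only target called among the 3 to 5 tested in each of these 6 comparisons, and the others lay between -0.80 (Ets1, the IL-2v dose) and 0.34 (Socs1, IL-2v against IL-15). In bead activation, 1 of 5 tested targets was called higher (Gfi1, a repressor, 1.85) and 2 lower (Socs3, a cytokine signalling inhibitor, -1.60, and Dtx1 -5.19), in a comparison in which 19.4% of all genes were called. Over the 21 libraries the correlation with Id3 was -0.76 for Cdkn1a, 0.84 for Ets1, 0.06 for Gfi1 and 0.05 for Socs1, with a median of 0.06. Genes of the EGR and SMAD pathways were called in no comparison other than bead activation.

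Correlations of the naive and memory partners over the 21 libraries were mostly positive with Id3 and negative with Id2. Of 11 with a mean of at least 20 CPM, 10 correlated positively with Id3 (median 0.86), among them Il7r (0.91), Tcf7 (0.90) and Slamf6 (0.89), and 10 negatively with Id2 (median -0.62). Over all 5494 other genes at that level, 51.1% correlated positively with Id3 (median 0.02) and 62.4% negatively with Id2 (median -0.12). Myb, a factor of progenitor cells, stood at 0.25 with Id3. Eomes was the exception on both sides, at 0.84 with Id2 and -0.73 with Id3. Of 5 effector partners, 2 correlated positively and 3 negatively with each gene. Gzmb and Prf1, the perforin gene, both stood at -0.72 with Id3. These correlations are descriptions over libraries that share their source, days and scaling. The lists were chosen with earlier results of these data known, so their contrast with all genes is no independent evidence.

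Likeness was measured as the Pearson correlation of log2(CPM + 1) over the 21 libraries, for the 5495 genes that averaged 20 CPM or more. Among the genes most like Id2 were Ifitm3 (0.93) and Ifitm1 (0.92), interferon-induced membrane proteins, Mapkapk3, a stress-activated kinase (0.90), and Nkg7, a cytotoxic granule protein (0.89). Ifitm1 ranged from 0.650 to 4950 CPM over the libraries, and Nkg7 from 316 to 1609 CPM. The genes that ran most against Id2 were Slamf6 (-0.90), Idh2, a mitochondrial isocitrate dehydrogenase (-0.89), Cd200, a surface glycoprotein (-0.87), Tox, a nuclear factor of T cell development and exhaustion (-0.87), and 2310001H17Rik (-0.86).

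The genes most like Id3 were Actn1, an actin crosslinker (0.94), Ipcef1 (0.93), Itga4, the alpha 4 integrin chain (0.92), Ikzf3, the Aiolos factor of lymphocytes (0.92), and Gm5914 (0.91). Of the exonic bases of Gm5914, 72.5% are shared with Ctcf on the other strand and 22.4% with Agrp, so its count is uncertain. Actn1 ranged from 3.96 to 279 CPM, with Itga4 from 1.36 to 196 CPM. Running most against Id3 were Chsy1, a chondroitin synthase, and Capn2, a calpain protease that shares 27.1% of its exonic bases with Gm37885, both at -0.90. Sec61a1, a subunit of the translocon of the endoplasmic reticulum (-0.90), Elmo2, a regulator of cell migration (-0.89), and Stk40 (-0.88) followed.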

How the data were processed

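Single-cell RNA sequencing counts were analysed for 21 libraries of mouse OT1 CD8 T cells, 1 library per condition, grouped by their titles. The deposited tables hold raw UMI counts per gene and cell, whole numbers with no normalization. Per the submitters' processing notes, mm10, Cell Ranger and Seurat (3.0.2 and 4.0.1) were used, with no role or order given. The extract protocol in the labels describes sorted tumour-infiltrating cells and the growth protocol in vitro culture, and the libraries were treated as cultured cells. Day 7 was not analysed here.

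The cell filter asked for 1000 UMIs and 500 genes or more, with a mitochondrial share of 10% or less, and kept 106456 of 106458 barcodes, so the filter removed almost nothing and the deposited tables were already filtered. Doublets were not removed, and cells with over 2 times the median UMIs of their library were left out as an alternative. UMIs were summed per library and divided by the total (CPM), and differences were taken on log2(CPM + 1). Only genes that averaged 20 CPM or more in either arm were held against the rule for a call. With 1 library per condition no model was fitted, and intervals (exact Poisson for CPM, exact Clopper-Pearson for shares, 95%) cover counting error only. Depth limits Id3 most, at 19 and 44 UMIs in its lowest libraries. Named genes were the 5 at each end of the Pearson correlation of log2(CPM + 1) with Id2 and with Id3, beside members of the lists that were called. Of the genes this rule names, 2 are not reported here. The 6 lists hold 51 genes. The 2 genes and the lists were chosen with earlier results of these data known. Positions and sequences came from GENCODE vM21 on GRCm38. Alternatives were other cell filters, TMM scaling, other totals, other pseudocounts, cells without cycling genes, days left out, and (chosen after seeing the data) doses or cytokines left out, cells with natural killer or innate lymphoid markers left out, and states after thinning. The calling step was run on simulated Poisson counts with planted changes larger than the call size. All libraries were drawn from the same mean levels, so the simulation holds no variation between libraries. It therefore checks the code and not how far the calls would repeat. Tools were Python 3.11.15, numpy 2.4.6, scipy 1.17.1, pandas 2.3.3, matplotlib 3.10.9, and edgeR 4.0.16 in R 4.3.3 (for TMM factors only).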

Additional observations from a re-analysis of the deposited data

Results flagged for a closer look

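The Id2 difference between IL-2v and IL-2 had opposite signs on day 3 and day 10, in every pair of those days. On day 3 it was higher with IL-2v at both doses, with a median log2 difference of 0.46 (0.32 and 0.60), and on day 10 it was lower at both doses, with a median of -0.97 (-1.44 and -0.50). The change of sign between the days was not tested, since each day had 1 library per condition.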

How the results depend on the processing

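Of 412 differences of Id2 or Id3 under alternatives, 375 kept their direction and their side of the fold of 2, 18 newly passed it, 6 no longer passed it and 13 changed sign. Calls of Id3 that ended were those of IL-2v at 5 IU/mL (-0.82) and IL-15 at 50 IU/mL (-0.90) against no cytokine without day 5, of the IL-15 dose without day 5 (-0.82) and of the IL-2v dose with a pseudocount of 10 (-0.96). The Id2 call of the IL-2v dose ended without day 5 (0.99) or day 10 (0.86). These are the values that changed sign. For Id2 on day 3 without cytokine against naive cells, the value was 0.097 without cells with natural killer or innate lymphoid markers, from -0.10. For Id2 with IL-15 at 5 IU/mL against no cytokine, the main value was 0.0075. It was -0.0076 without cells over 2 times the median UMIs and -0.0049 without cells with other lineage markers. Without cells with natural killer or innate lymphoid markers it was -0.0059, and in cells without cycling genes -0.024. It was -0.0085 with TMM, -0.035 as a mean over cells and -0.037 without day 3. For Id2 between IL-2v and IL-2 they were -0.31 without day 3, -0.089 without day 5 and -0.12 without the 50 IU/mL pairs. From day 3 to day 5 with cytokine Id3 was, from -0.46, 1.30 without the 50 IU/mL pairs and 0.53 without IL-2v, and the log2 ratio was -0.26 without the 50 IU/mL pairs, from 1.20. Of 158 differences of the ratio, 147 kept direction and side of the fold of 2. That fold was newly passed by 6, no longer passed by 4, and 1 changed sign. No longer passing were IL-15 against IL-2 without day 10 (-0.46) or the 50 IU/mL pairs (-0.59). So were 5 IU/mL IL-2 against no cytokine without day 5 (0.98) and day 10 against day 5 without IL-2 (0.96). IL-2v against IL-2 newly passed with, for instance, 1.59 without day 10.

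Values that newly passed were, without day 3, Id3 between IL-2v and IL-2 (-1.05), Id2 (-1.45) and Id3 (1.22) between IL-15 and IL-2, and Id2 between IL-2v and IL-15 (1.41). Without the 50 IU/mL pairs Id3 between IL-2v and IL-2 was -1.32, and Id2 between IL-15 and IL-2 was -1.23 without day 5. Without the 5 IU/mL pairs Id3 between IL-15 and IL-2 was 1.11 and Id2 between IL-2v and IL-15 was 1.61. The latter was 1.05 with at most 5% mitochondrial UMIs and 1.03 without cycling cells. Id2 from day 3 to day 5 was 1.13 without cycling cells, 1.10 with TMM, 1.003 with totals free of ribosomal and mitochondrial genes, 1.08 without the 5 IU/mL pairs and 1.16 without IL-15, and Id3 was -1.17 without the 5 IU/mL pairs. Without IL-15, day 10 against day 5 gave 1.48 for Id2 and -2.02 for Id3.

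The log2 ratio of a library changed sign on day 3 without cytokine and with IL-15 at 5 IU/mL on day 5. In the former it was -0.20 with at most 5% mitochondrial UMIs and -0.051 without cells with other lineage markers. It was -0.017 there without natural killer or innate lymphoid markers and -0.21 without cycling cells. In the latter it was -0.0043 without cells over 2 times the median UMIs, -0.10 without cycling cells and -0.021 as a mean over cells. Without the filter at 20 CPM the called genes numbered 2621 instead of 1197 for activation, 1663 instead of 757 for day 5 against day 3 without cytokine, and, against no cytokine, 74 instead of 27 (IL-2 at 5 IU/mL), 1502 instead of 781 (IL-2 at 50 IU/mL), 495 instead of 291 (IL-2v at 5 IU/mL), 1745 instead of 1006 (IL-2v at 50 IU/mL), 23 instead of 8 (IL-15 at 5 IU/mL) and 267 instead of 134 (IL-15 at 50 IU/mL). They numbered 240 instead of 125 for IL-15 against IL-2, 329 instead of 178 for IL-2v against IL-15, 851 instead of 411, 423 instead of 178 and 135 instead of 58 for the doses of IL-2, IL-2v and IL-15, and 354 instead of 180 and 260 instead of 96 for days 5 and 10. With TMM the median of all genes fell most for IL-2v at 50 IU/mL against no cytokine, from 0.27 to -0.02. It rose most for day 10 against day 5, from -0.09 to 0.06. The share of calls that were higher went with TMM from 27.6% to 38.0% for day 5 against day 3 without cytokine, and, against no cytokine, from 75.0% to 59.1% (IL-2, 50 IU/mL), 90.7% to 80.6% and 83.1% to 57.1% (IL-2v, 5 and 50 IU/mL) and 87.3% to 75% (IL-15, 50 IU/mL). It went from 79.2% to 59.0% for IL-2v against IL-2, 80.9% to 62.1% for IL-2v against IL-15, 79.2% to 63.9% for the IL-2v dose and 27.2% to 42.9% for day 5 against day 3 with cytokine. Shares of cells with a UMI moved by more than their intervals in 124 of 126 cases with thinning to 1000 UMIs or none. Leaving out the filter can only add called genes, and the depth of thinning by itself changes how many cells show a UMI. The cause of the other changes was not tested.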
